A study of Homo sapiens with 34 samples.

Results

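Transfer RNA (tRNA) genes were followed across CUT&RUN libraries of U2OS cells, a human osteosarcoma line. The members were the 443 genes of biotype tRNA on chromosomes 1 to 22 and X in a RefSeq gene table of GRCh38.p14, of 59098 genes in all. Each gene, with a median length of 73 bp, was extended by 1 kb on both sides, and it was called occupied in a library when at least 1 bp of this window lay in a region of that library's list. A tRNA gene with this window is about 2073 bp long.

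CUT&RUN uses a nuclease tethered by an antibody to cut out the DNA near a protein. Antibodies to 3 proteins were used: SMARCA1, a nucleosome-sliding ATPase of the ISWI family, OGG1, the glycosylase that excises 8-oxoguanine, and Orc6, a subunit of the origin recognition complex. All cells had been held with thymidine and released for 3 h into early S phase, after 72 h with the control siRNA siGl3 or with siOrc6, against Orc6. They were left non-treated (NT) or given 5 mM H2O2 for 30 min. SMARCA1 and OGG1 had lists under both siRNAs and both treatments, Orc6 under siGl3 alone, which makes 10 groups of 2 libraries and 20 libraries. The other 14 of 34 samples were not analysed here. They include IgG libraries of siGl3 cells with and without H2O2, so occupancy was not compared with IgG. No source used here says that the replicates were separate cultures, so p-values measure the spread between these libraries, which may be technical. The knockdown could not be checked from region lists.

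tRNA genes are transcribed by RNA polymerase III from a promoter inside the gene itself. TFIIIC binds its A box and B box and brings TFIIIB, which recruits the polymerase. The genes lie in clusters, the largest on the short arm of chromosome 6 among histone genes, and active ones share open, nucleosome-poor chromatin.

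No table used here gives tRNA sequences by gene symbol. RefSeq promoter sequences of GRCh38.p14 (250 bases before to 50 after a gene's start) wholly contain 14 tRNA genes, and 9 of these are shown because they span the range of occupancy. Capitals mark the tRNA gene, lower case its flanks of up to 25 bases. The gene table has no strand, so each is written 5′ to 3′ on the strand that holds the only match of GTTCNANNC, a loose form of the B box. TRP-TGG3-2, upstream of ANG, and TRP-TGG3-5, upstream of OR1F1, are proline genes of identical sequence that were each occupied in 19 of 20 libraries. TRF-GAA1-5 was occupied in 18. The histidine genes TRH-GTG1-3 and TRH-GTG1-9, also identical, were occupied in 6 and 8. The last 4 lie in the chromosome 6 cluster: the isoleucine genes TRI-AAT8-1 and TRI-TAT2-2 were occupied in 13 and 10, and TRA-AGC2-2 and TRL-AAG2-2 in 0.
TRP-TGG3-2, chr14:20683991-20684112, + strand: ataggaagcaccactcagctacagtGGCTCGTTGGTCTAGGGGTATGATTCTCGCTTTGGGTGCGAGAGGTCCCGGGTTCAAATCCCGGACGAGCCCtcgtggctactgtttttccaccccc
TRP-TGG3-5, chr16:3188069-3188190, + strand: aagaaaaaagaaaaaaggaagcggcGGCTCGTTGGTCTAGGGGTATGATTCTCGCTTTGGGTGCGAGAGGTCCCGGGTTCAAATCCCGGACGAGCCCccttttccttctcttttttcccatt
TRF-GAA1-5, chr13:94549625-94549741, - strand: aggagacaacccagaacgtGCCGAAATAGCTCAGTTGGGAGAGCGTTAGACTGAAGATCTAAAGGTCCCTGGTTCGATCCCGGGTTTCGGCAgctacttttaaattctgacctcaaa
TRH-GTG1-9, chr15:45201126-45201247, + strand: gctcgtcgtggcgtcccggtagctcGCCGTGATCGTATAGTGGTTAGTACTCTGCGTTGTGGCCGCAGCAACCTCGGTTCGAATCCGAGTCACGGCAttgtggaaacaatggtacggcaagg
TRH-GTG1-3, chr1:148281340-148281461, + strand: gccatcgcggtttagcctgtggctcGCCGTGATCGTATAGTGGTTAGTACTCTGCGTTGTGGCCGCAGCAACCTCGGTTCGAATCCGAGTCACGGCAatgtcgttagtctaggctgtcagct
TRI-AAT8-1, chr6:27668574-27668681, + strand: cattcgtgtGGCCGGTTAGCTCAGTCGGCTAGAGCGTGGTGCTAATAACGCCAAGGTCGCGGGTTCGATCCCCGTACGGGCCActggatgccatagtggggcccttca
TRI-TAT2-2, chr6:27020321-27020464, + strand: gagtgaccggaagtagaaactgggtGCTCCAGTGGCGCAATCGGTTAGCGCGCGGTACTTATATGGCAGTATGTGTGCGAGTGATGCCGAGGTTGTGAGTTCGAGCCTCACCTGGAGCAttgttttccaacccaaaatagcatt
TRA-AGC2-2, chr6:28863678-28863781, - strand: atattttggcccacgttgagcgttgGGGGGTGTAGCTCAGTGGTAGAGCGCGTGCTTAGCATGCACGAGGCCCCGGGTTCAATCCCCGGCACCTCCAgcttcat
TRL-AAG2-2, chr6:28943597-28943728, - strand: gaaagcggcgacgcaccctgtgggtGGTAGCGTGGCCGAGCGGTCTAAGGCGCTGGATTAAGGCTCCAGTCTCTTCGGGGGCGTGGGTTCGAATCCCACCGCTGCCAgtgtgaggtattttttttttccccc

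A longer and stricter form of the B box, searched first, was found in 5 of the 14 genes and in 29 promoters (0.0829% of all), and the loose form was taken after that. All 14 genes held GTTCNANNC once, at bases 52 to 60 in the proline, histidine and alanine genes above. Of all 34961 promoters of 300 bases, 2607 (7.46%) held it on either strand. Since all 14 genes held the loose form, its presence cannot tell genes that were never occupied from genes occupied in 19 libraries.

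The lists differed in size in a way that bears on every count. They held 6992 to 132408 regions and covered 31.8 to 825 Mb, and they list no reads, so depth is unknown. The shortest was SMARCA1 siGl3 NT replicate 1. H2O2 lists were longer than NT lists in 9 of 10 pairs of the same antibody, siRNA and replicate. The share of genome positions at which a window of 2073 bp would meet a region, called the placement share below, went from 1.52% to 34.6%. All 4 SMARCA1 siOrc6 lists carry a mark of a second submission, so for SMARCA1 that mark and the siRNA cannot be told apart.

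In non-treated siGl3 cells few tRNA genes met a SMARCA1 region, more met an OGG1 region and the highest share met an Orc6 region. SMARCA1 lists met 2.93% and 10.2% of the 443 genes in replicates 1 and 2. OGG1 lists met 25.5% and 27.8%. Orc6 lists met 43.1% and 54.9%, so the 3 antibodies did not overlap in this condition. The placement shares were 1.52% and 2.17% for SMARCA1, 6.66% and 9.48% for OGG1, and 6.27% and 13.6% for Orc6. In replicate 1 Orc6 and OGG1 were thus near each other in placement share and apart in tRNA share.

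After H2O2 the tRNA share was higher in every one of 10 pairs. In siGl3 cells SMARCA1 reached 39.7% and 36.8%, OGG1 68.6% and 66.8%, and Orc6 58.2% and 56.9%. In siOrc6 cells SMARCA1 went from 28.0% and 19.6% without treatment to 45.1% and 49.9%, and OGG1 from 35.7% and 36.6% to 66.6% and 66.1%. H2O2 and NT libraries did not overlap within SMARCA1, within OGG1 or within Orc6. The mean difference was 27.7 percentage points for SMARCA1, 35.7 for OGG1 and 8.58 for Orc6, against pooled SDs within groups of 4.37, 1.08 and 5.91 points. The Orc6 difference was 2.71 points without NT replicate 1 and 14.4 points without NT replicate 2.

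Other features were also higher after H2O2, and the tRNA share is read beside them. Ends of protein-coding genes (39948 windows of 1 kb on either side of an end) went up by 17.02 points for SMARCA1, 30.0 for OGG1 and 9.64 for Orc6. miRNA genes went up by 9.81, 27.1 and 7.56 points. Divided by the placement share, tRNA occupancy was 4.58 without and 6.52 with H2O2 for SMARCA1, with overlapping libraries. The ratio was lower after H2O2 for OGG1, 2.26 against 3.55, and for Orc6, 3.81 against 5.45, and in these 2 antibodies the libraries did not overlap. This ratio has a ceiling that falls as the placement share rises, because no list can meet more than all tRNA genes. OGG1 placement shares were 22.9% to 34.6% after H2O2 and 6.66% to 11.7% in NT. List size thus limits the ratio, and no conclusion is drawn from its fall.

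**Figure D1:**
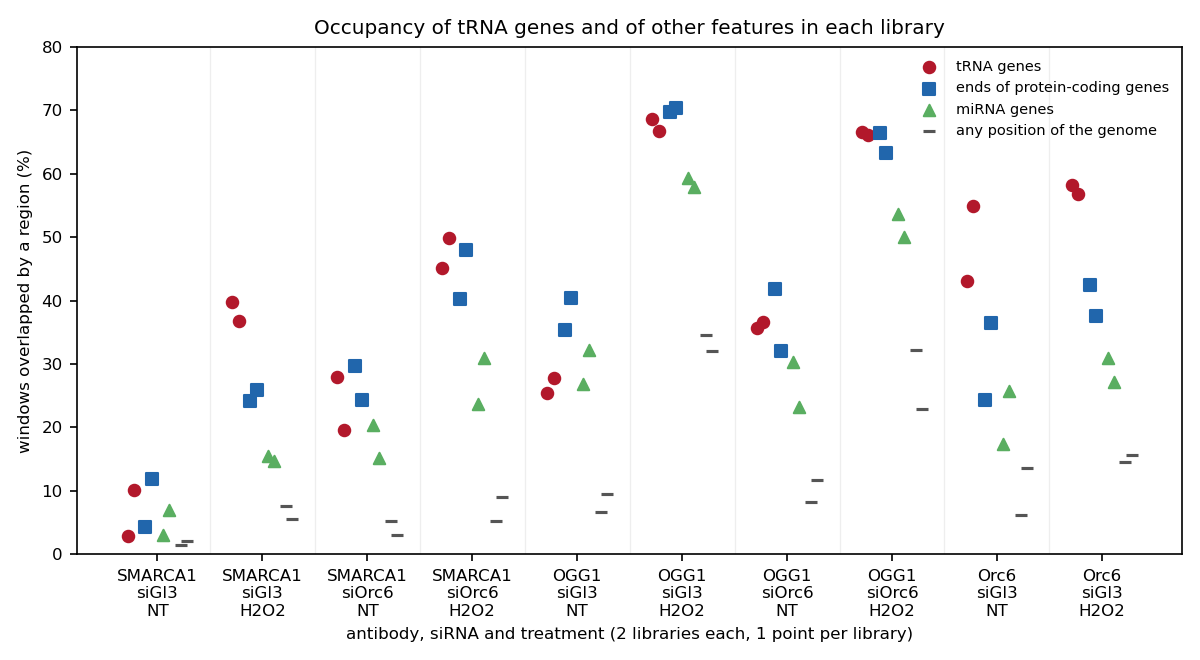
Share of windows overlapped by a region (y axis, %) for tRNA genes, ends of protein-coding genes, miRNA genes and any genome position, by group on the x axis with 1 point per library. tRNA points lie above those of protein-coding ends in all 4 Orc6 libraries, in the 4 SMARCA1 H2O2 libraries, and in 1 of 4 OGG1 NT and 2 of 4 OGG1 H2O2 libraries.

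In full lists Orc6 had the largest excess of tRNA genes over protein-coding gene ends, by a narrow margin over SMARCA1 siGl3 H2O2. This measure was not planned and was added after the data were seen. Its tRNA share was 18.8 and 18.4 points above that of the gene ends in NT libraries and 15.8 and 19.3 points above after H2O2. OGG1 libraries ran from -12.7 to 4.50 points and SMARCA1 siOrc6 libraries from -4.70 to 4.81. SMARCA1 siGl3 libraries were at -1.36 and -1.77 in NT and at 15.6 and 10.96 after H2O2. The lowest Orc6 library was thus just above the highest of the others. When each list was reduced to its 6992 regions of highest total signal, the 4 Orc6 libraries were still 10.4 to 17.6 points above, and the other antibodies lay between -6.26 and 6.20. With lists reduced to equal covered bases the Orc6 range was -1.23 to 4.43 points, which overlapped the other antibodies. Orc6 lists then kept at most 2154 regions. With regions up to 5 kb wide the Orc6 range was 2.56 to 9.55 points, below the 15.1 and 10.7 points of SMARCA1 siGl3 H2O2.

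Single tRNA genes were tested together with all 59098 genes, each extended by 1 kb, with an exact permutation test of H2O2 against NT within the 5 combinations of antibody and siRNA. Of the 443 tRNA genes, 69 were occupied more often after H2O2 and 0 less often (two-sided exact test, Benjamini-Hochberg adjusted p = 0.0464 for each of them). Of all genes 6.63% were called higher and 0.00169% lower, which is 0.00765% lower of those that could pass. At an unadjusted p under 0.05, 124 tRNA genes were higher and 0 lower, beside 13.9% and 0.00338% of all genes. Windows of all genes are longer than those of tRNA genes. Among short genes, 2.04% of miRNA genes and 2.09% of snoRNA genes were called higher. Adjustment was over the 13078 genes whose total occupancy allows p below 0.05. Of the 145 tRNA genes among these 47.6% were called, against 30.0% of all such genes, 13.4% of miRNA genes and 10.4% of snoRNA genes. H2O2 lists were longer in 9 of 10 pairs, which bears on which genes could pass, so no effect on tRNA genes is read from these shares.

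These calls were sensitive to the setting. Tested over replicate pairs, which the labels tie to a batch, 0 tRNA genes were called (smallest adjusted p = 0.0505, exact sign test), and adjusted over all 59098 genes 0 were called (0.209). With lists of equal length 0 were called as well (exact test, smallest adjusted p = 0.281). Leaving out 1 library gave 0 calls for SMARCA1 siGl3 NT replicate 1 or 2, SMARCA1 siOrc6 NT replicate 2, Orc6 NT replicate 1 or any of the 4 OGG1 H2O2 libraries, 32 without SMARCA1 siOrc6 H2O2 replicate 2 and 118 without Orc6 NT replicate 2. The share of all genes called in these runs is not given, so the counts show only how far the calls moved.

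The 10 called genes of highest signal lay on chromosomes 1, 2, 6 and 14. TRN-GTT2-2, an asparagine gene of the chromosome 1 cluster, was occupied in 2 of 10 NT libraries (1 OGG1, 1 Orc6) and in 8 of 10 H2O2 libraries (2 SMARCA1, 4 OGG1, 2 Orc6). TRN-GTT1-1 in the same cluster, 1445 bp from FCGR3A, was occupied in 0 of 4 SMARCA1, 0 of 4 OGG1 and 1 of 2 Orc6 NT libraries, and in 2, 4 and 2 after H2O2. TRL-CAG1-6 and TRG-TCC2-6 lie side by side near HSPA6 and had the same pattern, 0, 2 and 2 in NT and 4, 4 and 2 in H2O2. Their windows overlap, so they are not independent. TRK-CTT1-1, a lysine gene on chromosome 14, had 0, 1 and 2 in NT and all 10 H2O2 libraries. TRP-AGG2-5 and TRL-AAG2-3, also neighbours on chromosome 14, had 0, 1 and 2 in NT and 3, 4 and 2 in H2O2. TRY-GTA5-4 on that chromosome had 0, 1 and 0 against 1, 4 and 2. TRE-TTC1-1 on chromosome 2, 734 bp from VMA22, had 1, 1 and 2 against 4, 4 and 2. The last of the 10, TRX-CAT1-4, is described with the initiator genes.

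In OGG1 libraries alone 52 tRNA genes were in 4 of 4 H2O2 lists and in 0 of 4 NT lists (two-sided Fisher's exact test, Benjamini-Hochberg adjusted p = 0.0348), and 0 had the opposite pattern. Of all genes 8.48% were called higher, of miRNA genes 4.87% and of snoRNA genes 9.28%. This test pooled the siGl3 and siOrc6 libraries as 4 against 4 without strata, and no test within each siRNA was made. Only genes occupied in exactly 4 of 8 libraries can pass. There were 57 such tRNA genes, of which 91.2% were called, against 82.0% of all such genes. OGG1 H2O2 lists held 73301 to 132408 regions and NT lists 17813 to 33435, so most such genes enter through the H2O2 lists. No effect on tRNA genes is read from this share. Of the 52, 33 lay in the chromosome 6 cluster and 19 elsewhere, where 34 and 23 genes could pass. Leaving out OGG1 siOrc6 NT replicate 2, which met 34 genes of the cluster where the other 3 NT lists met 8 to 10, raised the calls to 101, while leaving out any other OGG1 library left 0. The share of all genes called without that library is not given, so the 101 shows only sensitivity to it. Over the 4 replicate pairs 0 were called, since 4 pairs cannot go below an exact p of 0.125, and with lists of equal length 0 were called (exact test, smallest adjusted p = 0.198).

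Named by signal, these were TRX-CAT1-4, TRQ-TTG3-3, TRK-CTT2-4, TRS-AGA2-1, TRR-ACG1-1, TRI-AAT5-1, TRW-CCA3-2 and TRI-AAT9-1 in the chromosome 6 cluster, TRN-GTT1-1 on chromosome 1 and TRL-CAA5-1 on chromosome 11. TRQ-TTG3-3 and TRK-CTT2-4 were also in both NT and both H2O2 Orc6 lists and in 0 of 8 SMARCA1 lists. TRL-CAA5-1 was in 0 Orc6 lists. By contrast, the proline genes TRP-TGG3-2 and TRP-TGG3-5 shown above were in 4 of 4 OGG1 lists both with and without H2O2.

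For SMARCA1 alone 0 tRNA genes passed (Fisher's exact test, smallest adjusted p = 0.0688), where 0% of all genes passed. At an unadjusted p under 0.05, 28 tRNA genes were higher after H2O2 and 0 lower, beside 2.48% and 0.0203% of all genes. All 28 were in 0 of 4 NT and 4 of 4 H2O2 lists. With regions up to 5 kb wide 33 tRNA genes were called higher (exact test, smallest adjusted p = 0.0495), which is 7.45% of them beside 4.73% of all genes. For Orc6, with 2 libraries against 2, the smallest exact p is 0.333 and no test was made. Here 9 tRNA genes were in both H2O2 lists and neither NT list, and 0 the other way, beside 2.30% and 0.303% of all genes.

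**Figure D2:**
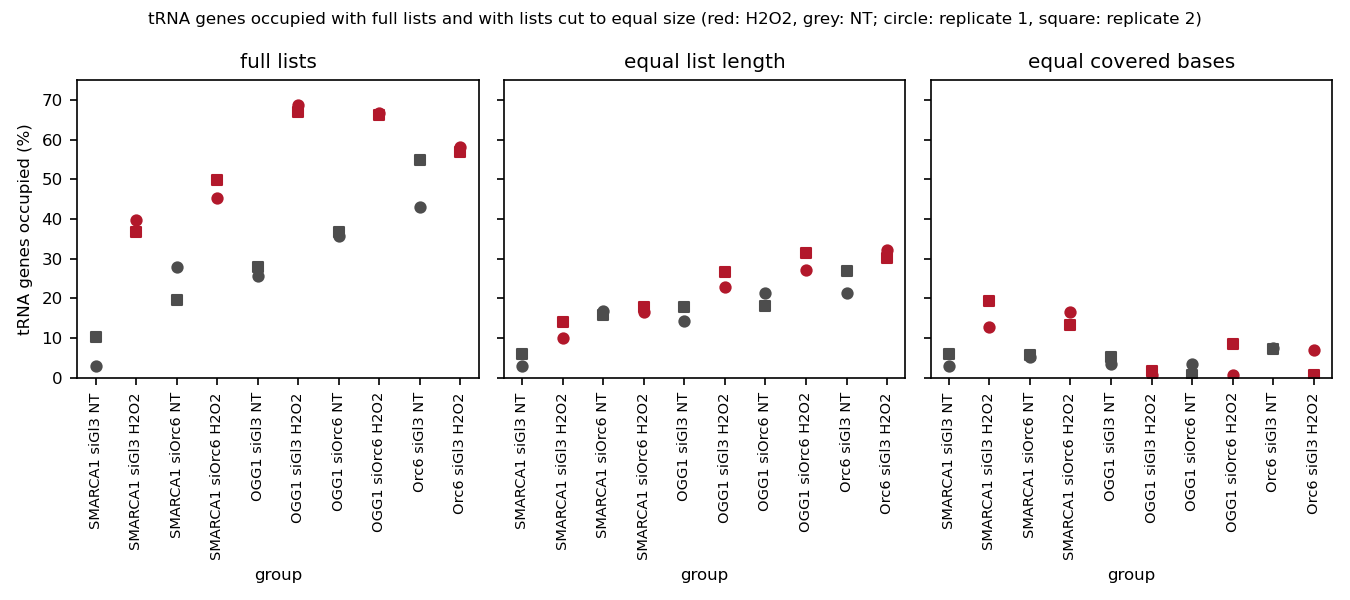
Share of tRNA genes occupied (y axis, %) by group, with full lists, with each list reduced to its 6992 regions of highest total signal, and with lists reduced to 31.8 Mb of such regions. Each point is a library (red H2O2, grey NT), and the gap between red and grey is narrower in the second panel and, for OGG1 and Orc6, no longer upward on average in the third.

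The H2O2 difference was smaller in reduced lists. At equal list length the difference was 4.23 points for SMARCA1, 9.14 for OGG1 and 7.11 for Orc6, and H2O2 was higher in 3 of 4, 4 of 4 and 2 of 2 pairs. At equal covered bases it was 10.6 points for SMARCA1, higher in 4 of 4 pairs, -0.282 for OGG1 and -3.50 for Orc6. This setting kept at most 729 regions in an OGG1 list and 2154 in an Orc6 list. The OGG1 and Orc6 values thus rest on few regions.

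siOrc6 libraries met more tRNA genes than siGl3 libraries for SMARCA1 in 4 of 4 pairs. The differences were 25.1 and 9.48 points in NT cells and 5.42 and 13.1 points after H2O2, with a mean of 13.3. Protein-coding gene ends were 19.01 points higher in the same pairs. The tRNA difference lay outside the chromosome 6 cluster: other loci went up by 19.98 points on average, and the cluster moved by -0.694. By gene, 0 passed (Fisher's exact test, smallest adjusted p = 0.118; 0% of all genes). At an unadjusted p under 0.05, 8 tRNA genes were in 4 of 4 siOrc6 and 0 of 4 siGl3 lists and 1 the reverse, beside 1.34% and 0.12% of all genes. Among these 9, named after their values were seen, TRP-AGG1-1, TRK-CTT4-1 and TRK-CTT5-1 lie in the chromosome 16 cluster and TRT-TGT6-1, TRK-CTT2-3 and TRV-CAC1-5 in the chromosome 5 cluster. TRM-CAT6-1 and TRE-TTC2-2 lie elsewhere, and TRE-CTC1-7 was the reverse one. At equal list length 16 tRNA genes were called higher with siOrc6 (exact test, smallest adjusted p = 0.0463), which is 3.61% of them beside 2.43% of all genes, while at equal covered bases the share differed by -0.0564 points. As stated above, the second-submission mark goes with this siRNA.

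For OGG1 the siOrc6 difference was 10.2 and 8.80 points in NT cells and -2.03 and -0.677 points after H2O2. By gene, 0 passed in either direction, 0 at an unadjusted p under 0.05 (Fisher's exact test, smallest adjusted p = 1; 0% of all genes).

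Between antibodies, SMARCA1 met fewer tRNA genes than OGG1 in 8 of 8 matched pairs, by 20.2 points on average. By gene, 0 passed (Fisher's exact test of 8 against 8, smallest adjusted p = 0.0965; 0% of all genes), with 0 higher in SMARCA1 and 17 higher in OGG1 at an unadjusted p under 0.05, beside 0% and 6.81% of all genes. Over replicate pairs 2 were called higher in OGG1 (exact sign test, smallest adjusted p = 0.0445), which is 0.451% of them beside 2.01% of all genes. OGG1 covered more of the genome. At equal covered bases the direction of the share was reversed, SMARCA1 being 7.17 points higher (11.9 points with regions up to 5 kb wide). At equal covered bases 7 tRNA genes were called higher in SMARCA1 (exact test, smallest adjusted p = 0.00684). These are 1.58% of tRNA genes beside 2.35% of all genes. At equal covered bases no OGG1 list kept more than 729 regions and no SMARCA1 list fewer than 1280. OGG1 lists then met 0.677% to 8.58% of tRNA genes. The 7.17 points and the 7 calls thus compare lists of unequal length and show only how far the setting moved the result. Orc6 met more tRNA genes than SMARCA1 in siGl3 cells, by 30.9 points, in 4 of 4 pairs without overlap. At equal covered bases the difference was -4.63 points and with regions up to 5 kb wide -3.27 points. At equal covered bases Orc6 lists kept at most 2154 regions and SMARCA1 siGl3 lists at least 6545. By gene, 0 passed (Fisher's exact test, smallest adjusted p = 0.191; 0% of all genes), with 18 higher and 0 lower at an unadjusted p under 0.05, beside 0.865% and 0.00169% of all genes. Against OGG1 the Orc6 share was higher in both NT pairs and lower in both H2O2 pairs, from -10.4 to 27.1 points, so the mean of 6.09 points joins opposite directions. By gene, 0 passed (Fisher's exact test, smallest adjusted p = 0.110; 0% of all genes), with 0 tRNA genes in either direction at an unadjusted p under 0.05, beside 0.0643% and 1.93% of all genes. These comparisons share the SMARCA1, OGG1 and Orc6 siGl3 libraries.

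The chromosome 6 cluster, taken as the tRNA genes that start from 25 to 30 Mb on that chromosome, holds 144 of the 443 genes, the first starting at 26286526 and the last ending at 28989083. Its share was below that of the other 299 genes in 20 of 20 libraries. The cluster takes in 43 genes from 28474552 to 28989083, of which 40 were met in 0 libraries. The gap was not computed without them, here or in the settings below, so it is shown only for the cluster with these genes. OGG1 H2O2 lists met 6.40% of them on average. The same lists met 98.5%, 86.9%, 86.5% and 42.7% of stretches of 33, 21, 13 and 31 genes in the cluster, and 72.2% of other loci. In SMARCA1 NT lists the cluster was nearly empty: its lists met 2 and 1 of the genes under siGl3 and 7 and 0 under siOrc6, which is 0% to 4.86%. The other loci were at 3.68% and 14.7% in siGl3 and 39.1% and 29.1% in siOrc6 cells. After H2O2 the SMARCA1 share in the cluster was 31.25% and 28.5% in siGl3 and 24.3% and 29.9% in siOrc6 cells, with no overlap with NT. Other loci were then at 43.8% and 40.8%, and at 55.2% and 59.5%.

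OGG1 lists also met few genes of the cluster in NT cells. Its share was at 5.56%, 6.94%, 6.94% and 23.6% in the 4 NT lists and at 54.2% to 57.6% in the 4 H2O2 lists. Other loci went from 35.1% to 49.5% in NT lists to 70.9% to 73.9% after H2O2. The difference between cluster and other loci was -30.5 points on average in NT and -16.0 after H2O2, without overlap. Orc6 lists already met the cluster without treatment, at 29.9% and 52.1%, against 49.3% and 52.8% after H2O2. In Orc6 lists the other loci were at 49.5% and 56.2% in NT and at 62.5% and 58.9% after H2O2. In the comparison over all antibodies 36 of the 69 called genes lay in the cluster, which is 25% of its genes, and 33 elsewhere, 11.04% of those. Of the genes whose total occupancy allowed a call, 63 lay in the cluster and 82 elsewhere. Neighbouring genes share regions, so these counts are not of independent genes.

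Gene ends of protein-coding genes in the same 5 Mb did not follow the tRNA genes in each antibody. There were 237 such ends. In SMARCA1 NT lists they were at 13.1% and 24.1% in siGl3 and 25.3% and 19.0% in siOrc6 cells, above the tRNA genes of the cluster in each library. In OGG1 NT lists they were at 2.95%, 3.797%, 5.91% and 19.4%, near the tRNA genes and below the ends elsewhere, which were at 32.1% to 42.1%. OGG1 H2O2 lists met 47.3% to 49.4% of them, and Orc6 lists 24.9% to 38.0%.

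**Figure D3:**
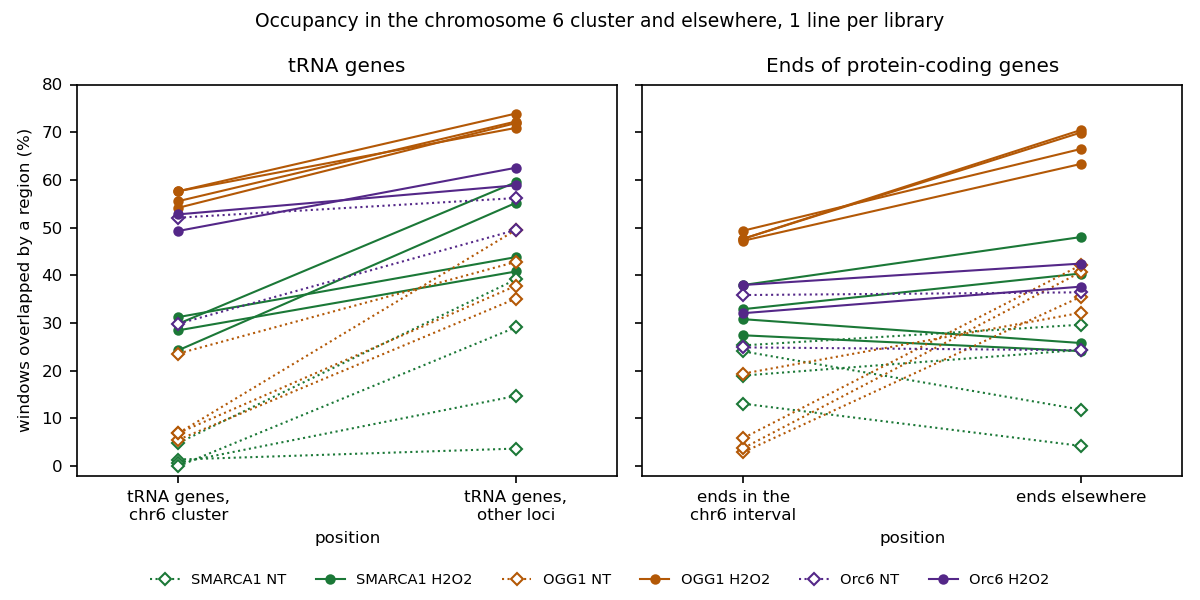
Share of windows overlapped by a region (y axis, %) in the chromosome 6 cluster and elsewhere, for tRNA genes (left) and ends of protein-coding genes (right). Each line is a library, dotted with open diamonds for NT and solid with filled circles for H2O2, and all 20 tRNA lines rise from left to right.

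The gap between cluster and other loci remained in 20 of 20 libraries at equal list length, with a mean of -20.7 points against -19.7 for full lists. At equal covered bases, where OGG1 and Orc6 lists met 0 genes of the cluster, it was -8.45 points, and with regions up to 5 kb wide -5.25. In the last setting the cluster was lower in 4 of 4 NT and 4 of 4 H2O2 SMARCA1 lists, but in 3 of 4 and 2 of 4 OGG1 and 1 of 2 and 0 of 2 Orc6 lists.

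Occupancy was uneven within the cluster. Genes closer than 100 kb to the next were taken as 1 group, which gave 131 groups genome-wide. The 43 genes from 28474552 to 28989083, 15 of them alanine, had 40 genes that were met in 0 libraries, and OGG1 H2O2 lists met 6.40% of them on average. By contrast, OGG1 H2O2 lists met 98.5% of the 33 genes from 27478812 to 27795932 and 86.5% of the 13 genes from 26286526 to 26331515. Orc6 NT lists met 68.2% and 65.4% of these 2 groups, and SMARCA1 NT lists 4.55% and 3.85%. The 21 genes from 27020346 to 27335062 were similar, at 86.9%, 64.3% and 1.19%. Loci outside the cluster averaged 72.2% in OGG1 H2O2, 52.8% in Orc6 NT and 21.7% in SMARCA1 NT lists. These groups, which leave out the 43 genes above and the 31 genes named next, were above the other loci in OGG1 H2O2 and Orc6 NT lists. In SMARCA1 NT lists they were below them. The other loci keep their 65 never-met genes, so this comparison is one-sided and only describes the chosen groups. Of the 31 genes from 26521208 to 26828299, 17 were never met.

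Other clusters had their own levels. On chromosome 16, 14 genes from 3150674 to 3192060, for lysine, proline and arginine, were met in 100% by OGG1 both in NT and in H2O2 lists, in 58.9% by SMARCA1 NT and in 92.9% by Orc6 NT lists. The 8 genes from 59550629 to 59566452 on chromosome 11 were at 93.8% for OGG1 NT, 46.9% for SMARCA1 NT and 93.8% for Orc6 NT. The 5 genes on chromosome 12 from 124921755 to 124940037 reached 90% in SMARCA1 NT lists, where all tRNA genes averaged 15.2%. On chromosome 14 the 14 genes from 20609336 to 20684087, next to RNASE genes and ANG, went from 53.6% to 100% with H2O2 for OGG1 and from 21.4% to 62.5% for SMARCA1. On chromosome 17 the 18 genes from 8119155 to 8227064 went from 44.4% to 98.6% and from 20.8% to 79.2%. The chromosome 1 cluster of 32 genes from 161399700 to 161612029 went from 29.7% to 59.4% and from 7.81% to 39.8%, and 13 of its genes were never met.

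**Figure D4:**
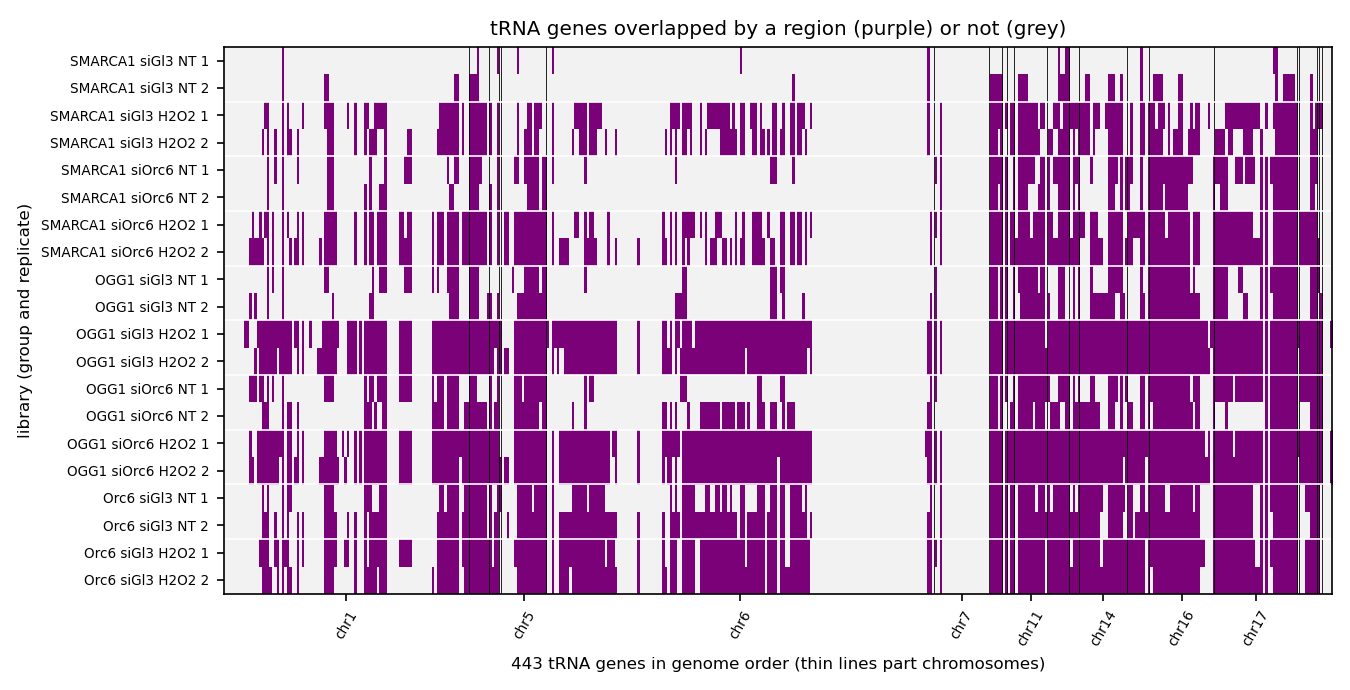
Occupancy of each of the 443 tRNA genes (x axis, genome order, chromosomes with 13 or more genes named) in each of the 20 libraries (y axis), purple where a region overlaps the window. Runs of neighbours share their state, and blocks on chromosomes 1, 6 and 7 are grey in every library.

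Of the 443 genes, 122 were met in 0 of 20 libraries and 4 in all 20. Of all genes 24.5% were met in none and 4.25% in all, of miRNA genes 29.1% and 0.994%, and of snoRNA genes 29.8% and 1.34%. The never-met genes were concentrated: 64 were on chromosome 6, 30 on chromosome 1 and 20 on chromosome 7, where only 2 of 22 genes were ever met. The 19 chromosome 7 genes from 149310190 to 149707740, 18 of them cysteine genes, were all never met. The first 5 in genome order, TRN-GTT26-1, TRNAE-UUC (at 31635 on chromosome 1), TRNAG-CCC, TRNAN-GUU and a second TRNAE-UUC (at 515512), lie in the first Mb of chromosome 1. Of the 20 genes with symbols of the TRNA form, 15 were never met. The handling of reads that match several copies of a sequence was not given in the sources used here, and its part in these zeros was not tested.

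Of the 4 genes met in all 20 libraries, 3 are given with the protein-coding gene nearest to them. TRC-GCA4-1, a cysteine gene on chromosome 17 from 38869292 to 38869363, is 695 bp from LASP1. Its region ranked at the 97.7th percentile of total signal within a list in the median, from 8.98 to 99.6. TRA-TGC3-2, an alanine gene on chromosome 12, had a median percentile of 94.7, TRQ-CTG1-4, 358 bp from RAB11A, 89.0, and TRR-TCT1-1, an arginine gene inside the span of BCAR3, 82.7. The lowest percentiles of the 4 genes were 5.55 to 19.2, so no gene stood high in every list. tRNA genes within 1 kb of an end of a protein-coding gene numbered 56, of which 2 were never met, and a mean of 72.2% were occupied per library. The 286 genes over 10 kb from such an end averaged 31.6%, and 105 of them were never met. Near and far genes both showed the gap to the chromosome 6 cluster: of genes over 10 kb away the cluster averaged 27.2% and other loci 35.0%, and of genes within 10 kb 38.9% and 63.7%.

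By amino acid, the highest mean shares among amino acids with at least 10 genes were those of proline (73.25% of 20 genes, mean of 20 libraries), arginine (64.8% of 26) and tyrosine (55.4% of 13). Lysine was level with tyrosine at 55.4% of 27 genes. The lowest were alanine (17.9% of 38), asparagine (20% of 26) and elongator methionine (21.4% of 11), and cysteine was at 21.7% of 29 genes. Position went with these ranks. Of the 38 alanine genes 27 lie in the chromosome 6 cluster, where they averaged 3.70%, and the 11 elsewhere averaged 52.7%, where the remaining genes averaged 48.2%. Methionine was alike, at 5.71% of 7 genes in the cluster and 48.8% of 4 elsewhere. Phenylalanine had 0 libraries with any of its 6 genes in the cluster met, against 74.0% of 5 genes elsewhere.

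Outside the cluster arginine was at 85.0% of 15 genes and above the remaining genes in 20 of 20 libraries, proline at 76.9% of 18 and above in 19. Asparagine was at 20% of 26 genes and below in 20 of 20, and cysteine at 21.7% of 29 and below in 19. Of the 29 cysteine genes, 18 were never met, all in the chromosome 7 block from 149310190 to 149707740. Most asparagine genes lie on chromosome 1, where all tRNA genes averaged 31.8%. Position thus went with these low shares too, and amino acid was not separated from it. Proline genes stood at 37.5% in SMARCA1 NT, 72.5% in OGG1 NT and 87.5% in Orc6 NT lists, and asparagine genes at 1.92%, 4.81% and 17.3%. After H2O2 OGG1 lists met 93.8% of proline and 47.1% of asparagine genes. Genes of an amino acid lie side by side in places and share regions, so they are not independent.

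**Figure D5:**
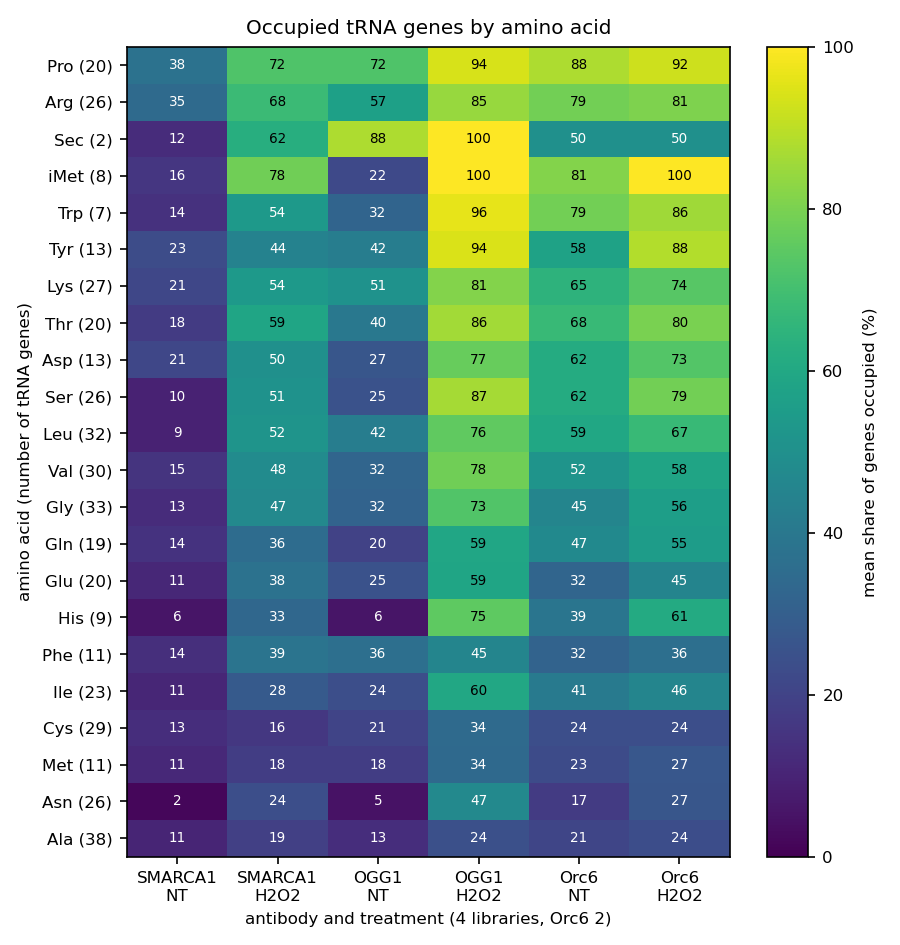
Mean share of occupied genes (colour and printed value, %) for each amino acid (rows, number of genes in brackets; iMet is the initiator, Sec selenocysteine) by antibody and treatment (columns). Proline and arginine lead the rows and alanine and asparagine end them, and OGG1 H2O2 is highest or tied in every row.

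Genes of the same mature tRNA differed in occupancy. By the naming rule of tRNA genes, symbols that differ only in the last number encode the same mature tRNA. There were 20 such families of at least 5 genes, with 129 genes. The number of libraries that met a gene differed within a family by 2 to 20, with a median of 14.5, and 11 families had both never-met and met genes. The aspartate family TRD-GTC2 of 11 genes, named after its values were seen, ran from 0 to 18 libraries.

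The initiator methionine tRNA, which starts translation, comes from 8 genes, TRX-CAT1-1 to TRX-CAT1-8. TRX-CAT1-8 on chromosome 17 was met in 18 libraries and TRX-CAT1-1 on chromosome 1, 257 bp from ILF2, in 15. The 6 genes of the chromosome 6 cluster were met in 14 (TRX-CAT1-2), 8 (TRX-CAT1-3), 10 (TRX-CAT1-4), 10 (TRX-CAT1-5), 11 (TRX-CAT1-6) and 12 (TRX-CAT1-7). All 8 were in 4 of 4 OGG1 and 2 of 2 Orc6 lists after H2O2. In OGG1 NT lists TRX-CAT1-8 was in 4 of 4, TRX-CAT1-1 in 2, TRX-CAT1-5 in 1 and the other 5 in 0. In SMARCA1 NT lists TRX-CAT1-2 and TRX-CAT1-8 were in 2 of 4, TRX-CAT1-1 in 1 and the rest in 0. TRX-CAT1-4 was called in both H2O2 comparisons that gave calls, with 0 of 4 SMARCA1, 0 of 4 OGG1 and 2 of 2 Orc6 NT lists against 2, 4 and 2.

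Selenocysteine tRNA, which reads UGA codons in selenoprotein messages, has 2 genes in the table. TRU-TCA1-1 on chromosome 19, 3422 bp from FOSB, was met in 17 libraries, and in SMARCA1 it went from 1 of 4 NT to 4 of 4 H2O2 lists. TRU-TCA2-1, inside the span of PARVB on chromosome 22, was met in 8, of which 7 were OGG1 lists and 0 Orc6 lists.

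Within each list, regions at tRNA genes were ranked by total signal beside regions at protein-coding gene ends. The median percentile at tRNA genes was the higher of both in 4 of 4 Orc6 lists, 6 of 8 OGG1 lists and 1 of 8 SMARCA1 lists. The difference ran from 1.46 to 11.1 percentile points in Orc6, from -3.27 to 11.8 in OGG1 and from -29.1 to 1.89 in SMARCA1. Percentiles were not compared between lists, whose lengths differ. The signal is the authors' own, and the labels do not give its scaling.

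The signal maximum of a region was seldom at the tRNA gene itself. It lay within 250 bp of the gene for 3.54% to 12.2% of occupied tRNA genes in OGG1 lists, 15.6% to 26.4% in SMARCA1 siGl3 lists, 8.05% to 16.3% in SMARCA1 siOrc6 lists and 17.3% to 35.8% in Orc6 lists. In siGl3 cells Orc6 did not overlap OGG1 in this measure. For protein-coding gene ends the values were 15.2% to 27.7% in OGG1, 20.7% to 40.1% in SMARCA1 and 21.02% to 35.9% in Orc6 lists. OGG1 regions at tRNA genes were wide, with medians of 6019 to 10823 bp, and 1 region held up to 14 tRNA genes. SMARCA1 H2O2 regions there had medians of 1219 to 2242 bp.

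In all, 3 lists of related genes, taken over their whole length plus 1 kb, were read beside the tRNA genes. Of 36 genes of the RNA polymerase III machinery 7 were called higher and 0 lower after H2O2 over all antibodies, and 1 and 0 in OGG1 alone. That is 19.4% and 2.78% of the list, against 6.63% and 8.48% of all genes. All genes are an unlike set, as they include short genes, of which 2.04% (miRNA) and 2.09% (snoRNA) were called over all antibodies. No share over protein-coding genes of like length was computed. The 7 calls had the same adjusted p of 0.0464 (two-sided exact test) as the tRNA calls, which were sensitive to the setting. The 7 were POLR3B and POLR3F, subunits of the polymerase, POLR2K, a subunit shared by the 3 nuclear polymerases, GTF3C1 and GTF3C3, subunits of TFIIIC, SNAPC3 of the snRNA activating complex, and SSB, which binds the ends of new polymerase III transcripts. GTF3C1 was in 0 of 4 SMARCA1, 3 of 4 OGG1 and 1 of 2 Orc6 NT lists and in 4, 4 and 2 after H2O2. GTF3C3, the gene called in OGG1, was in 0, 0 and 1 against 4, 4 and 1. POLR3GL, POLR2H and GTF3C2 were met in all 20 libraries and BDP1, a subunit of TFIIIB, in 0. BDP1 spans 71455651 to 71578288 on chromosome 5. Whether reads could be placed there, or were filtered, is not known, and the cause of this zero was not tested.

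Of 37 other genes transcribed by RNA polymerase III 2 were called higher and 0 lower over all antibodies, the vault RNA genes VTRNA1-1 and VTRNA1-3, and 3 and 0 in OGG1, the U6 genes RNU6-7 and RNU6-8 and the Y RNA gene RNY4. At 5.41% and 8.11% of the list, these shares are near those of all genes. Of these 37, 8 were never met, all of them 5S rRNA genes, which are near-identical copies. RN7SL1, the RNA of the signal recognition particle, was met in all 20. Of 23 genes of cytosolic aminoacyl-tRNA synthetases and their scaffold proteins, which load tRNAs, 2 were called higher over all antibodies, IARS1 and RARS1, and 1 in OGG1, EEF1E1, with 0 lower in both. These are 8.70% and 4.35% of the list, near and below the shares of all genes. YARS1 and AIMP2 were met in all 20 libraries and VARS1 in 0, with the same limit as for BDP1. The share met in SMARCA1 NT lists was 38.9% for the machinery, 17.6% for the other transcripts and 43.5% for the synthetases.

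For SMARCA1, positions of windows were also deposited under the names up and ns, and the labels do not say which samples each name compares. Of 7045 NT windows named up in the authors' deposited table, 32 met the window of a tRNA gene, and 45 tRNA genes were met, 0 in the chromosome 6 cluster. The authors' deposited table of 5317 NT windows named ns met 10 tRNA genes, 0 in the cluster. For H2O2, the authors' deposited table of 12359 windows named up met 56 tRNA genes, 6 in the cluster, and that of 31524 windows named ns met 127, 38 in the cluster.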

How the data were processed

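CUT&RUN used 500000 cells per sample, fixed with 0.1% formaldehyde for 1 min, and was read in pairs of 150 bases, per the labels' protocols. Tools listed, with no role, in the submitters' processing notes are SEACR 1.1, Bowtie2, DiffBind, DESeq2, SAMtools, deepTools and bedtools, and the build is hg38. Each deposited list, 1 per library, gives regions with the authors' total and maximum signal, used only to rank regions within a list, and no reads. An Orc6 list tied to no sample and the other 14 samples were not used here.

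Occupancy was computed with scipy 1.17.1, numpy 2.4.6, matplotlib 3.10.9 and pandas 2.3.3 under Python 3.11.15, with an overlap of at least 1 bp. Single genes were tested in every comparison with a two-sided Fisher's exact test, or, for H2O2 over all antibodies, its form in 5 strata, on all 59098 genes. The Fisher's tests had no strata and so pooled siRNAs, treatments or both. p-values were adjusted by Benjamini and Hochberg over genes whose totals allow p below 0.05, and a gene was called at an adjusted p up to 0.05. The test was tested on simulated data. Shares were given without a test. Replicate numbers mark a batch in the labels and so pair the libraries, while correlations of deviations between same-numbered libraries ran from -0.124 to 0.171 and 7 of 45 exceeded 0.1. Of 190 pairs of lists 0 were identical.

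Named are called genes (up to 10 per comparison by signal), genes met in all libraries, the first 5 met in none, initiator and selenocysteine genes, and the 3 highest and lowest amino acids. The members and lists were chosen with earlier results of these data known. Alternatives changed the window, the overlap, the list length, the covered bases, the region width, the pairing, the strata, the adjustment and the libraries.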

Additional observations from a re-analysis of the deposited data

Results flagged for a closer look

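The difference between siOrc6 and siGl3 cells in the share of tRNA genes met after H2O2 had opposite signs in 2 antibodies. It was 5.42 and 13.1 percentage points for SMARCA1 and -2.03 and -0.677 for OGG1, and the means differed by 10.6 points. For OGG1 the same difference was 10.2 and 8.80 points in NT cells, which lies 10.8 points above that after H2O2. These differences between groups were not tested.

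The gap between the chromosome 6 cluster and other tRNA loci was compared between SMARCA1 and OGG1 after H2O2. SMARCA1 minus OGG1 was 3.71 and 4.35 points under siGl3 and -17.6 and -11.9 under siOrc6, a difference of 18.8 points that was not tested. The SMARCA1 siOrc6 lists carry the second-submission mark.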

How the results depend on the processing

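The 69 calls over all antibodies became 35 with no extension, 8 in a Fisher's exact test without strata, and 0 at equal list length, at equal covered bases, with regions up to 5 kb wide, with the replicate block and with adjustment over all genes. The 52 OGG1 calls became 5 with regions up to 5 kb wide and 0 at equal list length, at equal covered bases, with the replicate block and with adjustment over all genes. Comparisons without calls gained 16 (siOrc6 in SMARCA1, equal list length), 33 (H2O2 in SMARCA1, regions up to 5 kb wide), 7 (SMARCA1 above OGG1, equal covered bases) and 2 (SMARCA1 below OGG1, replicate block), and the block changed no other call. Leaving out 1 library each gave 0 to 118 calls over all antibodies and 0 to 101 for OGG1. The share of all genes called is not given for these runs or for the counts of 35, 8 and 5. Those counts show only how far the calls moved and are not read as results about tRNA genes.

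With no extension the share difference was 22.1 points for H2O2 over all antibodies, 17.3 for SMARCA1, 33.5 for OGG1 and 35.9 for Orc6 against SMARCA1, and with 5 kb 35.8 for H2O2 in SMARCA1. At equal list length it was 6.77, 4.23 and 9.14 for H2O2 (all, SMARCA1, OGG1), 8.52 for siOrc6 in SMARCA1, -9.96 for SMARCA1 against OGG1 and 19.4 for Orc6 against SMARCA1. At equal covered bases it was 3.41, 10.6 and -0.282 for H2O2, -3.50 for H2O2 in Orc6, -0.0564 and 0.621 for siOrc6 (SMARCA1, OGG1), 7.17 for SMARCA1 against OGG1, -4.63 for Orc6 against SMARCA1 and -8.45 for cluster against other loci. With regions up to 5 kb wide it was 14.7 and 10.4 for H2O2 (all, OGG1), -9.71 in Orc6, 3.61 and -0.339 for siOrc6, 11.9 and -3.27 between antibodies and -5.25 for the cluster. Equal covered bases left lists of unequal length, with at most 729 regions in an OGG1 list, so the OGG1 values there rest on few regions. The cause of these moves was not tested. An overlap of 100 bp moved none of these. All other results under these settings kept their direction and their side of the threshold. Depth is unknown, and 2 libraries a group limit each test.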
